A study of Mus musculus with 16 samples.

Results

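The expressed antisense noncoding genes of mouse embryonic stem cells (mESC) are 128 of the 53379 genes in the deposited table of counts. They are the genes that GENCODE vM21 types as antisense, 2774 in the table, that had a mean of 50 or more unique molecular identifiers (UMIs) over the 8 input libraries. Kcnq1ot1 and Snhg9 also passed this threshold and were left out by their symbols. A UMI tags an RNA fragment before amplification and counts it once. The genes were chosen by their measured input level, so their levels are given as a description. The last genes inside the threshold were C920021L13Rik, with a mean of 50 UMIs, and Gm11725, with 50.1, and the first outside were 1700008J07Rik, with 49.9, and Gm16083, with 49.6.

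Male mESC were grown on gelatin in medium with LIF (1000 U/mL), the MEK inhibitor PD0325901 (1 uM) and the GSK3 inhibitor CHIR99021 (3 uM), and every group shared these conditions. The cells were crosslinked with UV light (UV-RIP), which joins protein to RNA in direct contact, or with formaldehyde (fRIP), which also captures RNA near the protein. Sox2 was immunoprecipitated (IP) from sonicated lysate of 4 replicates per crosslinker, and input RNA was set aside from the same lysates before the antibody was added, giving 16 libraries in 4 groups of 4. The replicates are numbered 3 to 6, and the values of 4 libraries are given in that order below. IP was compared with input only, and an IP with a control antibody was not used here.

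Antisense genes are transcribed from the strand opposite to another gene and overlap it head to head, tail to tail or within its body. Many are made in low amounts and stay in the nucleus, and a few, such as Tsix at the X-inactivation centre, Airn at Igf2r and Nespas at Gnas, are known to silence genes on their own chromosome in cis. Sox2 is an HMG-box transcription factor of pluripotent cells. The study asked whether it binds RNA directly, in vitro and in cells, and looked for RNAs enriched in its IP.

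The library totals were between 14218784 and 17281596 UMIs in the UV-RIP IP, 12456298 and 13828610 in its input, 17728081 and 21211537 in the fRIP IP, and 13627606 and 15381686 in its input. Levels are given in CPM, the UMIs of a gene per 1000000 UMIs of its library. The stem cell identity was visible in the inputs, where 14 of 15 markers of embryonic stem cells were above 1 CPM on average, with a summed level of 2932 to 3140 CPM in UV-RIP and 4700 to 5544 CPM in fRIP. Sox2, the remaining marker, had no UMI in any library. It lies wholly within Sox2ot on the same strand. Of 8 fibroblast or feeder markers 2 passed 1 CPM, with Lum at 0, and their sum was 2.92 to 4.01 CPM in the UV-RIP libraries and 5.72 to 8.91 CPM in the fRIP libraries. Of 10 markers of differentiated lineages 4 passed it, with Sox1 at 0, and their sum was 19.7 to 24.1 CPM in the IP and UV-RIP input libraries and 27.2 to 30.9 CPM in the fRIP inputs. The part of these lists in the results was not tested. The genes Gm26917 and Gm42418 took between 6.33% and 24.7% of the UMIs of a library, most in the UV-RIP IP. The fRIP input of replicate 4 stood apart from the other 3 fRIP inputs. In it, 97 of the 11427 genes with 50 or more input UMIs were more than 2-fold from the median of the 4 libraries, against 0 to 3 in the others. Results that rest on this library are therefore also given without replicate 4. The fRIP IP of replicate 5 also stood apart from the other fRIP IP libraries. The chi-squared statistic per degree of freedom between 2 libraries was 53.1, 60.0 and 38.3 for its pairs. For the other pairs of fRIP IP libraries it was 5.27, 5.44 and 6.11. Gm26917 and Gm42418 took 14.4% of the UMIs of this IP library, and 7.26%, 6.33% and 7.82% in replicates 3, 4 and 6.

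Most of the 128 genes carry only a number for a name. There were 102 with a Gm or Rik symbol, 18 with an os, ot or as symbol and 8 with another symbol. An overlapping gene on the opposite strand was annotated for 123 of them, and 111 of these partners were protein-coding. The antisense gene overlapped the end of its partner in 45 cases, its start in 28, lay wholly inside it in 31 and contained it in 19. No 2 of the 128 overlapped each other. The median gene body was 15409 bases long, of which a median of 9.69% was exonic, and the authors counted over the whole body, introns included. In the inputs the median gene had 102 UMIs, and 45 of the 123 had more UMIs than the partner.

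The library kit keeps the strand of the RNA, but the strand setting of the counting is not given in the sources used here. Of 5887 genes that lie wholly within a gene of the opposite strand and overlap none on their own, 62.3% had at least 1 UMI over the 16 libraries. Among 6297 genes wholly within a gene of the same strand, only 0.413% had one. Genes nested on the opposite strand were thus often counted, and genes nested on the same strand almost never. Tsix, which contains Xist on the other strand, had 162 UMIs in the mean input against 9.0 for Xist. Same-strand overlaps touch 20 of the 128 genes, and their counts may leave out the shared stretch. How many sense reads reach an antisense gene was not tested.

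RefSeq lists a promoter for 63 of the 128 symbols, here the 250 bases before and 50 after the start in GRCm38.p6. Those of 3 genes are shown because results below turn on these genes, and because their start lies at or within 3 bases of the GENCODE start. Lrp8os2 was enriched with both crosslinkers and its promoter is at chr4:107822973-107823272 (minus strand). Rab26os was depleted with both, at chr17:24528001-24528300 (plus strand). For 2310043M15Rik, at chr16:93794852-93795151 (minus strand), the fRIP enrichment was called below that of UV-RIP in the fit of all replicates. Capitals mark CG dinucleotides.
Lrp8os2 promoter: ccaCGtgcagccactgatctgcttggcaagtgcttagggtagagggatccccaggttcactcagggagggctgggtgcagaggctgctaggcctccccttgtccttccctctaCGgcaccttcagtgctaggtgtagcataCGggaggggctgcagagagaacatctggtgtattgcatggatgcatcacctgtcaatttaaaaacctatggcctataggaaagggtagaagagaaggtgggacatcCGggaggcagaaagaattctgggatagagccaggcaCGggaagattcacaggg
Rab26os promoter: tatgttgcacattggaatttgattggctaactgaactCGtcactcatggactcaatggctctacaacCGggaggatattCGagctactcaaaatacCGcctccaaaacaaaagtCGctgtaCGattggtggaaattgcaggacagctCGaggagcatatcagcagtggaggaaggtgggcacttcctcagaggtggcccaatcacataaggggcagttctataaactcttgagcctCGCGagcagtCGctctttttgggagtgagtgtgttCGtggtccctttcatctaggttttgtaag
2310043M15Rik promoter: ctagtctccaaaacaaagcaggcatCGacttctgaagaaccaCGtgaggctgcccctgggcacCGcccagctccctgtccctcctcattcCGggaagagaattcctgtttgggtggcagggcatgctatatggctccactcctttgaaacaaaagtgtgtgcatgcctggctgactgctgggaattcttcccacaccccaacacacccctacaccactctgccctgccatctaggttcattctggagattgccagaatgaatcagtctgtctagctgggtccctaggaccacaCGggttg
They held 5, 11 and 5 CG dinucleotides. The median was 14 over the 60 antisense genes with a promoter and a start in both annotations, and 7 over all 32851 promoters of the table, of which 94.6% held at least 1. The Sox motif CATTGT, read on both strands and overlapping no other motif searched, was in none of the 3. CATTGT was in 3 of the 60 promoters (5.0%) and in 12.6% of all. These counts leave out other forms of the Sox site, such as the CTTTGTT of the FGF4 enhancer element that the study used. Its reverse complement, AACAAAG, is in the 2310043M15Rik sequence above.

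Together the 128 genes made up a larger part of the RNA in the fRIP IP than in its input, while the direction in UV-RIP depended on the library size used. Their summed level was 2527 to 2620 CPM in the UV-RIP inputs and 2228 to 2493 CPM in the UV-RIP IP libraries. In fRIP it was 1657 to 1890 CPM in the inputs and 2179 to 2564 CPM in the IP. With these totals the groups did not overlap within either crosslinker, with the IP below the input in UV-RIP and above it in fRIP. Per total UMIs other than those of Gm26917 and Gm42418, the sums were 2938 to 3045 CPM in the UV-RIP inputs and 2930.5 to 3142 CPM in the IP, which overlapped, and 1772 to 2038 CPM in the fRIP inputs and 2544 to 2764 CPM in the IP, which did not. The fRIP inputs were the lowest of the 4 groups. Counts from pools of cells cannot tell fewer cells of a type from less RNA per cell.

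**Figure D1:**
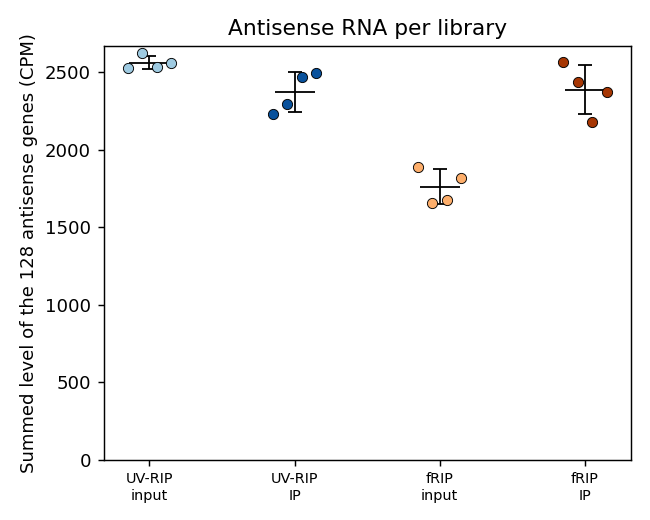
Summed level of the 128 antisense genes (vertical axis, CPM) in each of the 16 libraries, by group (horizontal axis). Points are libraries, and the bar and whiskers are the mean and SD of 4. The 4 fRIP inputs lie between 1657 and 1890 CPM, below every library of the other 3 groups.

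After formaldehyde crosslinking, antisense genes were often higher in the Sox2 IP than in the input. Of the 128, 52 were enriched (fold change above 1.5 and Benjamini-Hochberg adjusted p below 0.05 by edgeR), or 40.6%, where 8.80% of all 22936 genes tested were. Only 5 were depleted (3.91%), against 10.7% of all genes. The median log2 fold change was 0.46 over the 128 and -0.03 over all genes. The enriched genes had log2 fold changes between 0.59 and 1.62, and in 51 of the 52 the IP was above the input in 4 of 4 pairs. The 4 IP values lay wholly above the 4 inputs for 68 of the 128 genes (53.1%) and for 15.3% of all genes. Without replicate 4, 41 genes were enriched and 6 depleted, with a median of 0.42. Without replicate 5, 54 were enriched and 5 depleted, with a median of 0.51.

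Counts for other lists of genes with 50 or more input UMIs are given beside these as a description. Of 215 lincRNA genes 53 were enriched (24.7%), with a median log2 fold change of 0.28, and of 10797 protein-coding genes 1133 (10.5%), with a median of -0.09. Among the 116 partners that could be tested, whatever their level, 9 were enriched and 9 depleted, with a median of 0.08. These lists were not tested against each other.

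**Figure D2:**
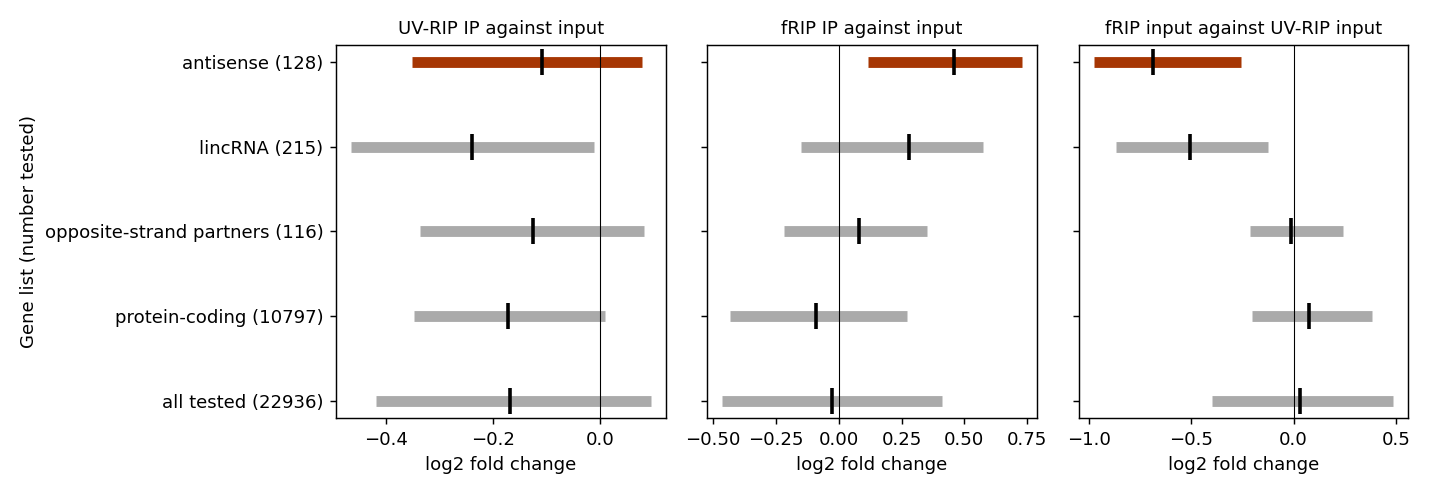
Middle of the log2 fold changes (horizontal axes) of the antisense genes and 4 other gene lists (vertical axis, with the number tested) in 3 comparisons. Bars span the lower to the upper quartile and black ticks are medians. The median of the antisense genes is 0.46 for the fRIP IP against input, -0.11 for the UV-RIP IP against input and -0.69 for the fRIP input against the UV-RIP input.

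Gm26542 had the largest fRIP enrichment of the antisense genes with 100 or more UMIs in the mean input. It runs over the end of Maml1, a coactivator of Notch signalling (chr11:50236953-50288839, plus strand). In the fRIP inputs it had 45.4, 36.7, 44.9 and 51.6 CPM and in the IP 117, 103, 104 and 119.8 CPM. Every IP library was above every input, and the log2 fold change was 1.32 (SE 0.08, edgeR adjusted p = 3.44e-11). Maml1 itself had 0.16 (adjusted p = 0.117).

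The other 4 of the 5 largest fRIP enrichments were in genes of low level. Gm11725, which overlaps the start of Tha1 (threonine aldolase), had 4.10, 1.69, 2.75 and 3.30 CPM in the input and 8.97, 8.85, 9.29 and 8.85 CPM in the IP. The IP values were close together and all above the inputs, with a log2 fold change of 1.62 (SE 0.16, edgeR adjusted p = 1.63e-08). Gm11767 changed by 1.53 (SE 0.14, edgeR adjusted p = 4.31e-09), Gm16268, opposite the scavenger receptor gene Stab2, by 1.48 (SE 0.11, edgeR adjusted p = 3.39e-10), and Gm47200, opposite the inhibin subunit gene Inhbc, by 1.27 (SE 0.12, edgeR adjusted p = 1.08e-08). For these 3 the IP was likewise above the input in every library. Gm11725 was at the edge of the threshold that chose the genes.

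Nespas and Airn, which lie in imprinted clusters, were enriched in fRIP. Nespas, which opposes Gnas (the stimulatory G protein alpha subunit) at chr2:174281237-174295436, minus strand, had 67, 50.3, 60.3 and 64.1 CPM in the input and 118, 109, 106 and 99.1 CPM in the IP. Its log2 fold change was 0.84 (SE 0.08, edgeR adjusted p = 2.33e-08). Airn, which overlaps the start of Igf2r, the receptor that clears IGF2, had 9.30, 7.24, 9.19 and 10.9 CPM in the input and 15.3, 16.1, 17.1 and 14.4 CPM in the IP, a change of 0.79 (SE 0.12, edgeR adjusted p = 4.97e-06). In both genes the groups did not overlap. In UV-RIP, Nespas had 93, 96.3, 91.7 and 96 CPM in the input and 105, 102, 114 and 108 CPM in the IP, a log2 fold change of 0.18 (SE 0.04, edgeR adjusted p = 1.21e-04), and Airn had 0.33 (SE 0.07, edgeR adjusted p = 3.99e-05). Neither passed the fold threshold there.

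Tsix, the antisense RNA that represses Xist, was not enriched with either crosslinker. It had 8.84, 4.71, 8.18 and 9.91 CPM in the fRIP inputs and 7.33, 6.61, 6.18 and 7.91 CPM in the fRIP IP, and the groups overlapped. The input of replicate 4 was the lowest. The log2 fold change was -0.15 (SE 0.13, edgeR adjusted p = 0.432), and -0.33 without replicate 4. In UV-RIP it had 13.7, 17.1, 17.8 and 16.4 CPM in the input and 7.03, 7.32, 9.68 and 8.85 CPM in the IP, all below the inputs, and was depleted, by -0.98 (SE 0.08, edgeR adjusted p = 3.92e-29).

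The 3 antisense genes of highest level differed among themselves. Tug1, a widely expressed noncoding RNA, overlaps the start of Morc2a, which encodes a chromatin ATPase (chr11:3639785-3649673, minus strand). It had 165, 129, 139 and 158 CPM in the fRIP inputs and 119, 107, 76.2 and 99.97 CPM in the IP. The IP was lower in every pair and the groups did not overlap, but the log2 fold change of -0.57 (SE 0.09, edgeR adjusted p = 1.01e-05) stayed within the fold threshold, and it passed it without replicate 3, at -0.60, or without replicate 4, at -0.66. In UV-RIP the change was -0.55 (SE 0.04, edgeR adjusted p = 2.18e-35). Gm29724, which overlaps the end of the metalloprotease gene Adamts8, had 94.5, 68.8, 83.6 and 90.6 CPM in the fRIP inputs and 148, 142, 113 and 135 CPM in the IP. It was enriched, by 0.67 (SE 0.09, edgeR adjusted p = 1.14e-06), though without replicate 4 the value of 0.55 was short of the fold threshold. The log2 fold change of 1600020E01Rik, which shares its start region with the RNA-binding protein gene Pcbp1, was 0.40 (SE 0.08, edgeR adjusted p = 1.07e-04) in fRIP and -0.35 (SE 0.04, edgeR adjusted p = 3.19e-14) in UV-RIP. Per kilobase of gene body the mean input level was 14.3 CPM for Tug1, 1.75 for 1600020E01Rik and 1.22 for Gm29724. Exons cover 98.4% of the Tug1 body, 7.70% of 1600020E01Rik and 4.74% of Gm29724.

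Of the 18 genes with an os, ot or as symbol, 8 were enriched in fRIP and 1 was depleted, where 8.80% of all genes were enriched and 10.7% depleted. Examples were Srrm4os, opposite the neuronal splicing factor gene Srrm4, at 0.82, and Junos, beside the transcription factor gene Jun, at 0.90 on the log2 scale (edgeR adjusted p = 2.98e-08 and 2.05e-05). Tbx3os1, next to the pluripotency factor gene Tbx3, had 0.82 (SE 0.09, edgeR adjusted p = 1.11e-07). These 3 were picked after their values were seen. By position, 13 of 31 genes inside the partner were enriched, 10 of 28 over its start, 19 of 45 over its end and 8 of 19 that contain it. The shares lay between 35.7% and 42.2%.

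The 5 genes depleted in fRIP were Gm20628, Rab26os, Gm28960, 4930566F21Rik and 2310043M15Rik, and the first rests on 1 library. Gm20628 had 2.54, 21.8, 3.62 and 3.16 CPM in the fRIP inputs and 1.30, 1.85, 3.91 and 2.16 CPM in the IP. Only the input of replicate 4 was high. Gm20628 also passed the threshold of 50 mean input UMIs through this library, as its other input libraries averaged fewer. The log2 fold change of -1.42 (SE 0.35, edgeR adjusted p = 0.00194) became -0.35 without that replicate (adjusted p = 0.127), and the call was lost. This gene was singled out after its values were seen. Rab26os, a single exon inside the vesicle GTPase gene Rab26 (chr17:24528248-24528744, plus strand), had 4.75, 12.2, 5.72 and 4.18 CPM in the inputs and 2.03, 2.29, 2.03 and 2.32 CPM in the IP. Here every input was above every IP library, with that of replicate 4 the highest, and the log2 fold change of -1.56 (SE 0.19, edgeR adjusted p = 4.01e-07) was -1.20 without replicate 4. Gm28960, inside the NAD synthesis gene Nmnat2, changed by -1.0 (SE 0.12, edgeR adjusted p = 2.63e-07) with all replicates and by -0.77 without replicate 4. 4930566F21Rik changed by -0.91 (SE 0.11, edgeR adjusted p = 4.28e-07) and 2310043M15Rik by -0.84 (SE 0.11, edgeR adjusted p = 8.87e-07). Without replicate 4 these 2 values were -0.81 and -0.71, and both calls were kept. These 2 genes and Gm28960 had no overlap between the groups.

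Under UV crosslinking few antisense genes were higher in the IP than in the input. Only 2 of the 128 were enriched (1.56%), where 0.680% of all genes were. A further 15 were depleted (11.7%), against 5.53% of all genes. The median log2 fold change was -0.11, and that of all genes -0.17. This shift of all genes follows the scaling by total UMIs, and with TMM factors the medians were 0.07 and 0.01, with 5 enriched (2.20% of all genes) and 5 depleted (1.85%). Library sizes without Gm26917 and Gm42418 gave 4 (1.83% of all genes) and 5 (2.20%). The difference between the medians was 0.06 with total UMIs and 0.07 with TMM. The 2 enriched genes were called under every scaling run (total UMIs, TMM, the size factors of DESeq2 and totals without Gm26917 and Gm42418), and Gm11266, Gm26944, Gm44777, Rab26os and Tsix were the genes depleted under each of them.

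Lrp8os2 and Gm17435 were the 2 genes enriched with both crosslinkers. Lrp8os2 lies inside Lrp8, which encodes a reelin receptor (chr4:107806033-107823022, minus strand). It had 11.6, 13.4, 9.92 and 11.4 CPM in the UV-RIP inputs and 19.6, 17.4, 19.4 and 19.9 CPM in the IP, with no overlap, a log2 fold change of 0.73 (SE 0.08, edgeR adjusted p = 1.86e-19). In fRIP the inputs had 7.54, 6.61, 7.45 and 9.98 CPM and the IP 10.7, 13.8, 13.2 and 11.2 CPM, again with no overlap, a change of 0.64 (SE 0.13, edgeR adjusted p = 2.17e-04). Its fRIP value fell short of the fold threshold without replicate 4, at 0.50, and without replicate 5, at 0.57. Its partner Lrp8 had 1.03 in fRIP (edgeR adjusted p = 5.64e-09), above the antisense gene, and 0.37 in UV-RIP (adjusted p = 2.06e-09), below it.

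Gm17435 runs tail to tail over most of its length with Med26, a subunit of Mediator (chr8:72492934-72505499, plus strand). It had 13, 11.9, 14 and 14.4 CPM in the UV-RIP inputs and 19.9, 18.2, 21.7 and 24 CPM in the IP, a log2 fold change of 0.65 (SE 0.07, edgeR adjusted p = 1.92e-17). In the fRIP inputs it had 5.46, 5.13, 5.35 and 5.50 CPM and in the IP 12.9, 11.6, 11.8 and 11.5 CPM, a change of 1.16 (SE 0.11, edgeR adjusted p = 1.63e-08). The groups did not overlap with either crosslinker. Med26 was enriched in fRIP as well, by 0.69 (edgeR adjusted p = 1.50e-07), and had -0.03 in UV-RIP (adjusted p = 0.652).

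Besides Tsix, the lowest UV-RIP values belonged to genes of low level. Gm26944, over the end of the 3' end processing gene Pcf11, had 8.67, 7.93, 7.34 and 9.18 CPM in the input and 3.09, 5.02, 3.71 and 4.57 CPM in the IP. All IP libraries were below the inputs, and the log2 fold change was -1.01 (SE 0.11, edgeR adjusted p = 9.47e-18). The changes were -0.92 (SE 0.14, edgeR adjusted p = 9.78e-10) for Rab26os, -0.84 (SE 0.11, edgeR adjusted p = 5.79e-14) for Gm44777, opposite the lipid kinase gene Pik3c2a, and -0.79 (SE 0.13, edgeR adjusted p = 9.38e-09) for Gm11266, inside the transcription factor gene Nfib. In these 3 genes, too, the groups did not overlap. Across the 128 genes, the UV-RIP IP lay wholly below the input for 39 (30.5%), where 25.0% of all genes did, and wholly above it for 7 (5.47%), where 4.93% did.

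**Figure D3:**
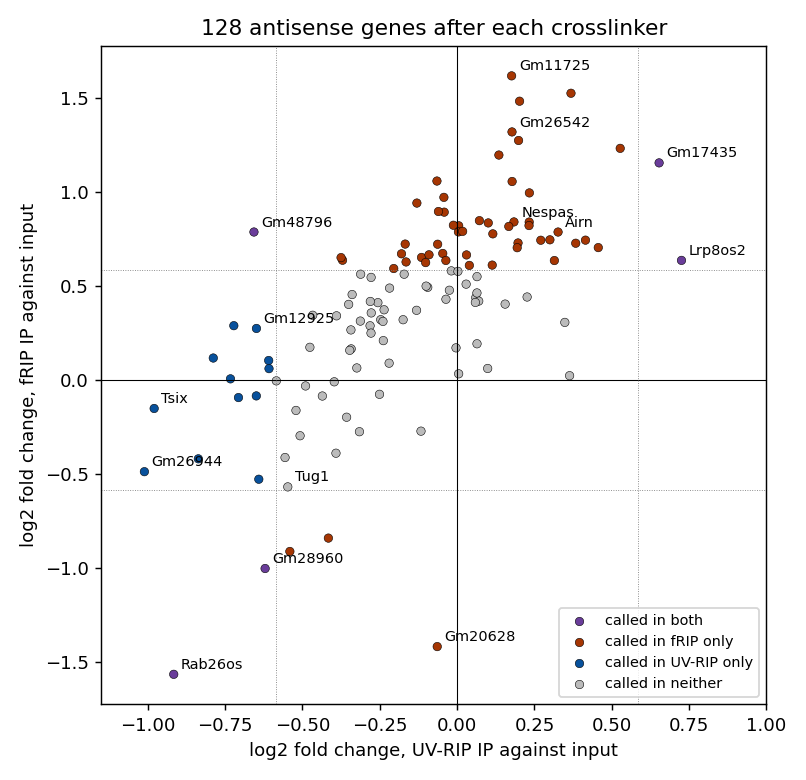
Log2 fold change of IP against input for the 128 antisense genes with UV (horizontal axis) and formaldehyde (vertical axis). Dotted lines mark a 1.5-fold change and colours the calls, and 104 of 128 points lie above 0 on the vertical axis and 47 right of 0 on the horizontal axis, with scaling by total UMIs.

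The enrichment was higher in fRIP than in UV-RIP for many of these genes. The interaction of IP and crosslinker over all 16 libraries passed an edgeR adjusted p of 0.05 with fRIP higher for 86 of the 128 (67.2%), against 18.6% of all genes, and with fRIP lower for 1 (0.781%), against 8.07%. The median difference was 0.59 on the log2 scale, and 0.15 over all genes. Of the 215 lincRNA genes with 50 or more input UMIs, 132 were higher in fRIP (61.4%) and 6 lower (2.79%), with a median of 0.50. Of all genes at that input level, 33.0% were higher and 15.3% lower, with a median of 0.12. With TMM factors 74 were higher (13.4% of all genes) and 4 lower (12.3%), and DESeq2 with median-of-ratios factors called 53 higher (9.32% of all genes) and 3 lower (10.4%). Without replicate 4, 78 were higher, the 1 lower gene no longer passed, and the median was 0.52. The largest differences were 1.43 (SE 0.21, edgeR adjusted p = 1.35e-05) for Gm11725, 1.43 (SE 0.28, edgeR adjusted p = 3.27e-04) for Gm48796 and 1.28 (SE 0.18, edgeR adjusted p = 4.96e-06) for Gm16268.

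Gm48796, inside the junction adhesion gene Jam3, was the single gene called in opposite directions. It had 4.66, 5.44, 3.10 and 5.64 CPM in the UV-RIP input and 2.81, 2.58, 3.04 and 3.41 CPM in the IP, and 7.09, 2.11, 6.15 and 6.31 CPM in the fRIP input and 9.31, 9.73, 8.30 and 9.02 CPM in the IP. The fRIP input of replicate 4 was low. Its log2 fold changes of -0.66 in UV-RIP and 0.79 in fRIP became -0.53 and 0.44 without that replicate, neither past the threshold, while the difference of 0.97 still passed. The 1 gene with a lower fRIP enrichment, 2310043M15Rik, had a difference of -0.42 (SE 0.15, edgeR adjusted p = 0.0342), which did not pass without replicate 3 or 4 or without the replicate block, and turned to 0.036 with the trend on gene length removed.

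**Figure D4:**
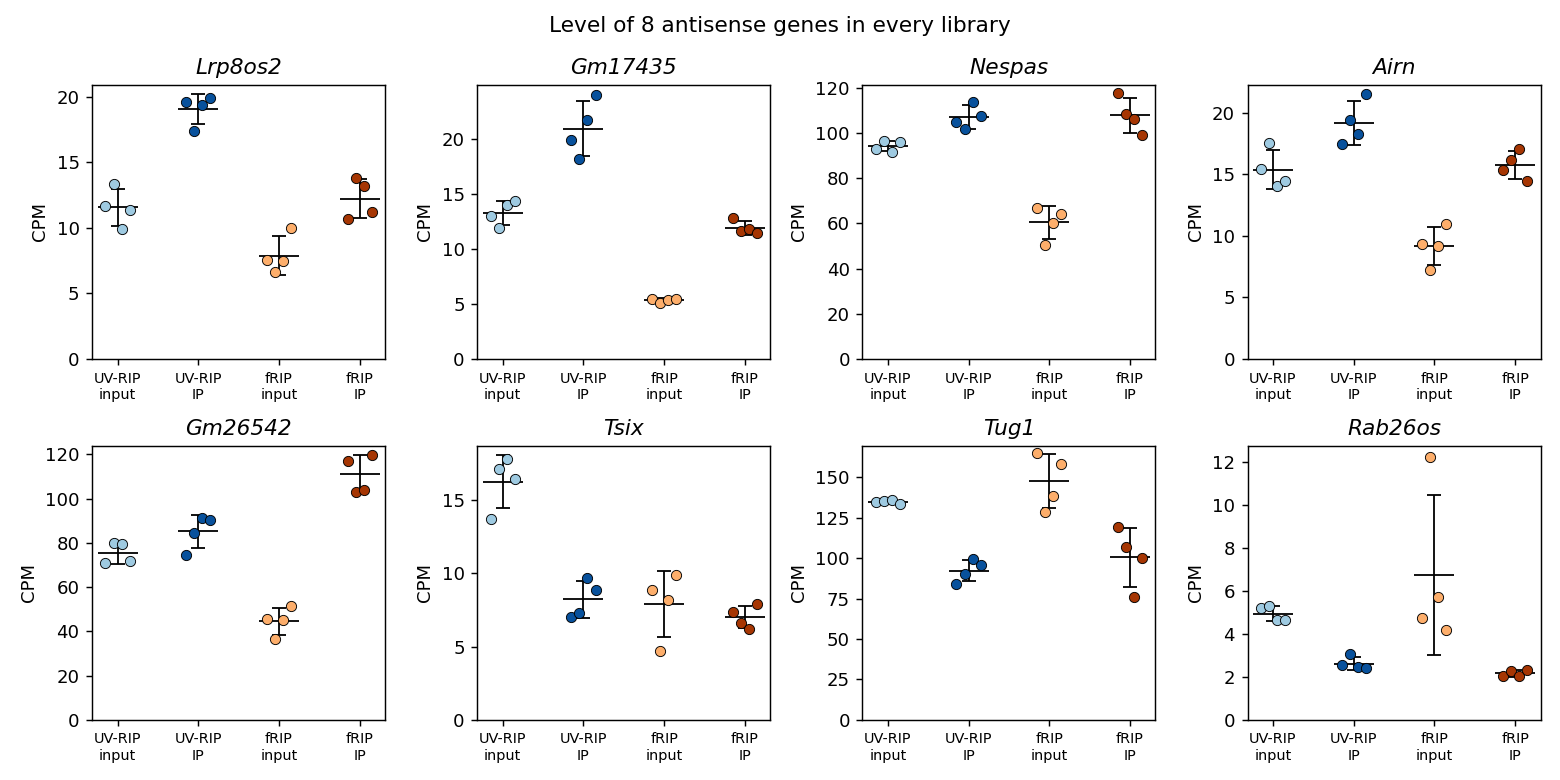
Level (vertical axes, CPM, from 0) of 8 antisense genes in every library by group (horizontal axes), with the mean and SD of 4 libraries. Lrp8os2 and Gm17435 are higher in the IP with both crosslinkers, Tsix and Rab26os are lower in the UV-RIP IP, and a single fRIP input of Rab26os (12.2 CPM) is far above the other 3.

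The inputs of the crosslinkers were compared because they are the base of each enrichment. Antisense genes were low in the fRIP input. Of the 128, 73 were lower in the fRIP input than in the UV-RIP input (57.0%), where 9.44% of all genes were, and 5 were higher (3.91%), against 10.6%. The median log2 fold change was -0.69, and 0.03 over all genes. The 4 fRIP inputs lay wholly below the 4 UV-RIP inputs for 90 genes (70.3%), against 17.5% of all genes. Without replicate 4 there were 66 lower and 5 higher, with a median of -0.60. Of the lincRNA genes 92 of 215 were lower, and of the 116 partners 7. Crosslinker and plate cannot be told apart here. The rule used the mean of these same libraries, so a gene could become a member through high UV-RIP inputs alone, and the count was repeated with other selections, chosen after seeing the data. Of the 112 antisense genes that averaged at least 50 UMIs over the fRIP inputs alone, 54 were lower in the fRIP input (48.2%) and 6 higher (5.36%), against 7.64% and 14.6% of all genes past the same threshold. Of the 167 that did so over the 8 IP libraries, which are not part of this comparison, 93 were lower (55.7%) and 5 higher (2.99%), against 9.62% and 13.4% of all genes.

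Between the IP libraries fewer antisense genes were called. In the fRIP IP 13 antisense genes were higher (10.2%, against 11.2% of all genes) and 19 lower (14.8%, against 4.80%) than in the UV-RIP IP, with a median log2 fold change of -0.12, where that of all genes was 0.18. With TMM factors 9 were higher (6.63% of all genes) and 28 lower (7.32%). Of the 73 genes lower in the fRIP input, 56 were called neither way between the IP libraries and 17 were lower there as well. Gm17435 was one of these 17, at -1.31 (SE 0.11, edgeR adjusted p = 2.66e-07) between the inputs and -0.81 (SE 0.10, edgeR adjusted p = 3.73e-07) between the IP libraries. Nespas, in contrast, had -0.64 between the inputs (edgeR adjusted p = 2.06e-05) and 0.01 between the IP libraries (adjusted p = 0.92). Among the 52 genes enriched in fRIP, 31 were lower in the fRIP input, 20 were called neither way and 1, Gm16268, was higher. Gm16268 had 2.73, 2.64, 3.26 and 3.11 CPM in the UV-RIP inputs and 7.35, 4.36, 6.58 and 6.75 CPM in the fRIP inputs. As the fRIP input enters the enrichment too, these counts are not independent of it.

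Each antisense gene was set beside its partner within the same library, which removes the library size. The ratio of antisense to partner UMIs could be tested for 116 of the 128. In fRIP it was higher in the IP for 9 (7.76%) and lower for 2 (1.72%) by limma with Benjamini-Hochberg adjustment over 1315 pairs, of which 0.760% were higher and 0.304% lower. The median change was 0.34 on the log2 scale, and 0.10 over all pairs. In UV-RIP the ratio was higher for 4 (3.45%, against 0.380%) and lower for 3 (2.59%, against 0.304%), with a median of 0.01. In the pairs outside the 116, the antisense gene had fewer than 50 UMIs in the mean input. Of the 10 pairs called higher in fRIP 9 were among the 116, and of the 5 in UV-RIP 4 were. The shares of all pairs therefore do not compare genes of like level. The calls moved with the pseudocount, and with 5 in place of 0.5 there were 36 higher and 6 lower in fRIP (6.31% and 16.3% of all pairs) and 6 higher and 13 lower in UV-RIP (1.83% and 3.42%). Without replicate 3, 5 or 6 there were 5 higher in fRIP, and without any 1 replicate there were 1 or 2 higher and 1 or 2 lower in UV-RIP.

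Gm11508 and the splicing factor gene Srsf1, which it meets head to head, had the largest change of ratio in fRIP. The antisense gene had 41.2, 37.1, 34.4 and 40.3 CPM in the input and 67.1, 62, 54.6 and 69.3 CPM in the IP, with no overlap and a log2 fold change of 0.72 (SE 0.08, edgeR adjusted p = 9.72e-08). Srsf1 was depleted, by -1.17 (adjusted p = 3.81e-11). The ratio rose by 1.89 (SE 0.07, limma adjusted p = 2.65e-05) in fRIP and by 0.70 (SE 0.04, limma adjusted p = 3.52e-04) in UV-RIP. For 1600020E01Rik and Pcbp1 the ratio rose in fRIP by 1.28 (SE 0.05, limma adjusted p = 5.54e-05), where Pcbp1 was depleted by -0.88. The ratio of Nespas to Gnas rose with both crosslinkers, by 0.97 (SE 0.06, limma adjusted p = 4.36e-04) in fRIP and 0.42 (SE 0.06, limma adjusted p = 0.0383) in UV-RIP. The UV-RIP call of Nespas was lost without any 1 of the replicates, with changes of 0.38 to 0.47 and adjusted p of 0.127 to 0.22. The other called ratios in fRIP were changes of 1.16 for Gm26542, 1.00 for Gm38825, 0.94 for Gm37876, 0.93 for 6230400D17Rik, 0.81 for 2610020C07Rik and 0.80 for Gm5577. The fRIP ratios of Gm11508, 1600020E01Rik, Nespas and Gm26542 passed with any 1 replicate left out. Most of the other ratios called in fRIP did not pass without replicate 3, 5 or 6. In UV-RIP the remaining higher ratios were those of Gm17435 to Med26, at 0.68, and Gm38825, at 0.28. That of Gm17435 did not pass without any 1 of the replicates either (adjusted p of 0.0835 to 0.144). Gm38825, Gm37876, 6230400D17Rik, 2610020C07Rik and Gm5577 were named because their ratios were called.

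The ratio was lower in the fRIP IP for Gm28960 against Nmnat2, with a change of -1.32 (SE 0.18, limma adjusted p = 0.0301), and for 2310043M15Rik against Dop1b, a gene of endosomal transport, with -1.28 (SE 0.20, limma adjusted p = 0.0389). Without replicate 4 these changes were -1.09 (limma adjusted p = 0.0041) and -1.07 (limma adjusted p = 0.0171), and both still passed, while neither passed without replicate 3, 5 or 6. In UV-RIP the lowest called value was that of Gm12925, inside the cytoskeletal linker gene Macf1, at -0.99 (SE 0.04, limma adjusted p = 7.57e-05). Gm12925 had 29.2, 28, 29.4 and 28.6 CPM in the UV-RIP inputs and 18.1, 18.3, 18.9 and 18.1 CPM in the IP, all below the inputs. Apol7d, head to head with the fibronectin gene Fn1, had -0.78 (SE 0.10, limma adjusted p = 0.0335), and Gm11266 against Nfib had -0.70 (SE 0.09, limma adjusted p = 0.0335). Gm12925 passed with any 1 replicate left out, Apol7d without replicate 3 but not without 4, 5 or 6, and Gm11266 in none of these fits (adjusted p of 0.0965 to 0.22). The partners Macf1 and Fn1 had 28794 and 28701 UMIs in the mean input, against 332 and 113 for the antisense genes, and the part of reads from the other strand in these ratios was not tested.

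The partners of the enriched antisense genes were compared with them in fRIP. Of 47 genes enriched in fRIP with a tested partner, 8 had a partner that was enriched as well (17%, where 7.76% of the 116 partners and 8.80% of all genes were) and 1 a partner that was depleted, and in 41 the partner's log2 fold change was lower. Across the 116 pairs the antisense gene was above its partner in 84 in fRIP and in 59 in UV-RIP. Spearman's rho between the 2 log2 fold changes of a pair was 0.32 in fRIP and 0.32 in UV-RIP (116 pairs, which share their libraries), given as a description.

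**Figure D5:**
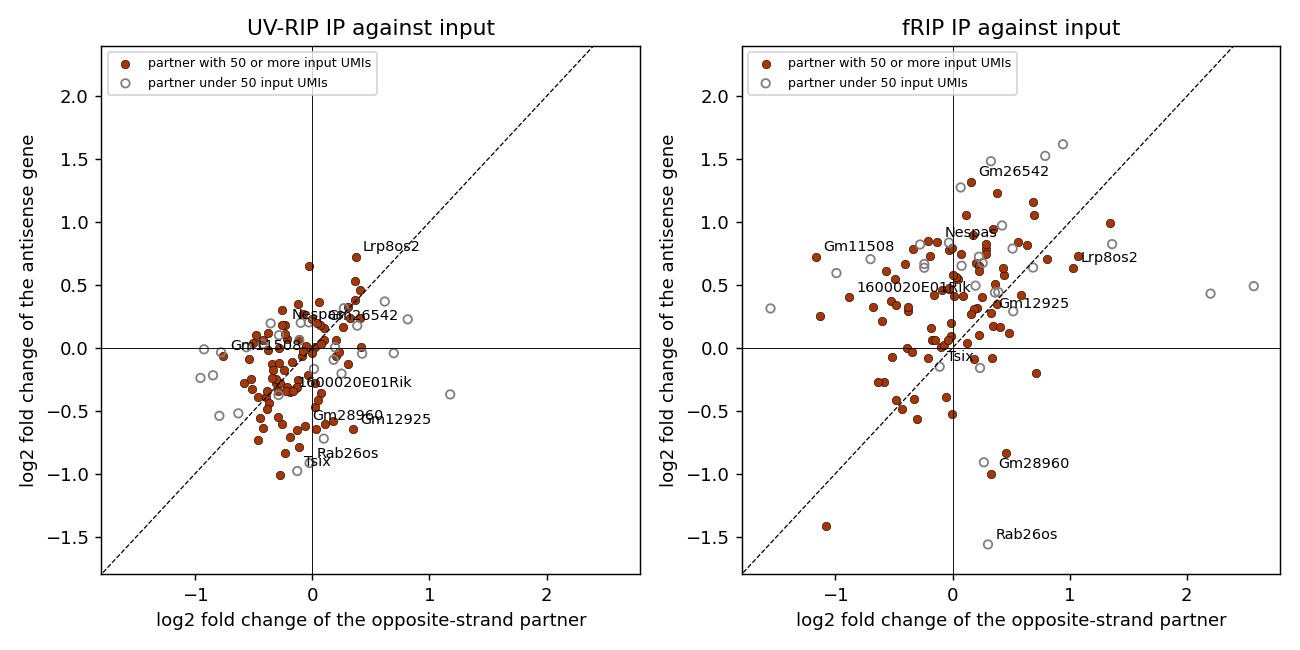
Log2 fold change of IP against input of each antisense gene (vertical axes) against that of its opposite-strand partner (horizontal axes) in UV-RIP and fRIP, for 116 pairs. The dashed line marks equal change, and 84 pairs lie above it in fRIP and 59 in UV-RIP.

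Higher values went with longer genes, a smaller exonic share and a higher GC content of the transcript. Spearman's rho of the log2 fold change with gene length over the 128 genes was 0.32 in fRIP and 0.25 in UV-RIP, and with the exonic share of the body -0.37 and -0.24. With the GC content of the longest annotated transcript it was 0.32 and 0.27. Over the 11416 genes of at least 50 input UMIs with an annotated transcript, rho with length was 0.56 in fRIP and 0.21 in UV-RIP, and with GC content 0.29 and 0.54. By length, 12 of the shortest 42 genes (497 to 9202 bases) were enriched in fRIP and 4 depleted, 20 of the middle 43 (9254 to 26768 bases) enriched and 1 depleted, and 20 of the longest 43 (28411 to 332651 bases) enriched. Of all genes tested, whatever their length, 8.80% were enriched in fRIP and 10.7% depleted, and shares of all genes by length were not taken. The antisense genes were shorter than the protein-coding genes of the same threshold, with medians of 15409 and 28308 bases. With the trend on gene length removed from all genes, 62 of the 128 were enriched in fRIP and 3 depleted, and of all genes 9.50% and 5.59%.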

How the data were processed

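RNA of 16 libraries (4 Sox2 IP and 4 input libraries per crosslinker) was sequenced after ribosomal RNA depletion. The deposited table holds counts of UMIs per gene, which the authors made by mapping reads with STAR to mm10 and counting UMIs of uniquely mapped reads over gene bodies with featureCounts (GENCODE vM16). Tool versions and the strand setting are not given in the sources used here. The study describes the 4 replicates of each crosslinker as biological, from separate culture plates.

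The members and gene lists were chosen with earlier results of these data known. Gene types, positions and opposite-strand partners (the gene with the largest overlap) came from GENCODE vM21, matched by identifier (124 members with the version, 4 without, for which no position is printed). The 22936 genes that reached 3 UMIs in any library were fitted with edgeR 4.0.16 (quasi-likelihood, R 4.3.3), with total UMIs as library size and the replicate number as a block within each crosslinker. A gene was called where its fold exceeded 1.5 and the p adjusted by Benjamini-Hochberg was under 0.05. The difference between crosslinkers was the interaction over 16 libraries, with no fold threshold, and inputs were compared without the block. Antisense to partner ratios used limma 3.58.1 on log2 values with a pseudocount of 0.5. SE is that of the fitted log2 fold change. Scripts were tested on simulated data.

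The genes named were the 3 of highest input level, up to 5 with the largest called change each way in each crosslinker that moved alike in 4 of 4 pairs, those enriched with both, the 3 largest called differences and the 2 largest called pair ratios each way, known antisense genes (Tsix, Nespas, Airn), partners, and the neighbours of the threshold. Gm20628, Srrm4os, Junos and Tbx3os1 were named after their values were seen. The replicate numbers paired the samples, since IP and input of one number came from the same lysate and their deviations correlated at 0.27, 0.21, 0.45 and 0.03 in UV-RIP and 0.60, 0.11, 0.61 and 0.32 in fRIP over 10208 genes. No replicates agreed within sampling noise. The alternatives were other scalings (TMM, DESeq2 1.42.0), filters, trends, no block and leaving out each replicate.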

Additional observations from a re-analysis of the deposited data

Results flagged for a closer look

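In 4 of 54 groups of 4 values, 1 value lay apart from the other 3 by Dixon's test. These groups were the log2 IP to input ratios of the 25 named genes with each crosslinker and the summed level in each group of libraries. All 4 such values were ratios, and chance alone gives about 1 group in 20. In fRIP replicate 4, Tsix had a ratio of 0.49, Gm28960 of -1.64 and Gm48796 of 2.21. All 3 values rest on the fRIP input that stood apart. In fRIP replicate 5, Gm47200 had a ratio of 0.96, the lowest of its 4.

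The enrichment of 17 named genes differed between crosslinkers by the edgeR interaction (adjusted p below 0.05). The difference on the log2 scale, fRIP minus UV-RIP, was 1.43 for Gm11725, 1.43 for Gm48796, 1.28 for Gm16268, 1.15 for Gm11767, 1.14 for Gm26542 and 1.07 for Gm47200. It was 0.92 for Gm12925, 0.92 for Gm11266, 0.83 for Tsix, 0.79 for Gm11508, 0.76 for 1600020E01Rik and 0.72 for Gm29724. Smaller differences were 0.66 for Nespas, 0.59 for Apol7d, 0.51 for Gm17435 and 0.46 for Airn, and 2310043M15Rik had -0.42. Without replicate 4 the difference of Airn, 0.29, and that of 2310043M15Rik, -0.30, did not pass.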

How the results depend on the processing

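The fRIP enrichment of the antisense genes and their low fRIP input kept their direction under every alternative run, while the sign of the UV-RIP median followed the scaling, which moved all genes alike. The antisense median stayed 0.06 to 0.07 above that of all genes under each of these scalings. In UV-RIP, TMM factors gave 5 enriched and 5 depleted (median 0.0713), median-of-ratios factors 5 and 5 (0.0557, with 1.26% and 1.02% of all genes), and library sizes without Gm26917 and Gm42418 4 and 5 (0.0438). Removing the trend on gene length left 9 depleted in UV-RIP and 3 in fRIP. With no fold threshold there were 21 enriched and 55 depleted in UV-RIP (6.60% and 29.0% of all genes) and 82 and 11 in fRIP (17.6% and 21.9%). Among the 66 genes with 100 or more input UMIs, 5 were depleted in UV-RIP (6.54% of all genes at that level), and 27 were enriched and 3 depleted in fRIP (10.6% and 16.1%). For the difference, TMM factors gave 4 lower genes, median-of-ratios factors 3 (and 53 higher), totals without Gm26917 and Gm42418 4 and no count filter 4. DESeq2 with total UMIs and the length trend gave 0 lower, where the value of 2310043M15Rik turned to 0.0365 with the trend removed. Between the IP libraries TMM gave a median of -0.27, and totals without Gm26917 and Gm42418 8 higher and 34 lower with a median of -0.35 (5.07% and 9.23% of all genes). Genes chosen on the UV-RIP inputs alone gave 1 higher between the inputs, with 94 of 148 lower. For the pair ratio a pseudocount of 5 gave 13 lower in UV-RIP and 36 higher and 6 lower in fRIP, and an edgeR count model, added after seeing the data, 9 higher and 14 lower in UV-RIP (1.06% and 1.37% of all pairs) and 6 higher and 3 lower in fRIP (1.22% and 0.608%). Apart from the scalings, the cause of these moves was not tested.

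Leaving out 1 replicate gave 2 enriched and 12 to 18 depleted in UV-RIP, 41 to 55 and 5 to 6 in fRIP, 72 to 85 higher and 0 to 4 lower for the difference, 66 to 77 lower between inputs, 1 to 2 higher and 1 to 2 lower for the UV-RIP pair ratio, and 5 to 12 higher and 0 to 2 lower for that of fRIP. Without the replicate block, 2 were enriched and 15 depleted in UV-RIP, 52 and 5 in fRIP, 76 higher and 0 lower for the difference, and 15 pair ratios were higher in fRIP (1.75% of all pairs). Of the values of single genes under the alternatives, 1119 kept their call, 36 gained one, 44 lost one and 1 reversed. A planned correction for genomic GC was not run, and one on transcript GC, added later, gave 52 and 5 in fRIP and 2 and 15 in UV-RIP. The lowest count of an antisense gene in a library was 9 UMIs, which limits the precision of those near the threshold.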
